A study of Mus musculus with 8 samples.

Results

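The 53 genes described here encode the glutathione, peroxiredoxin, thioredoxin and other antioxidant enzymes of the mouse exorbital lacrimal gland (LG), matched by gene symbol, with earlier results of these data known when the families were picked. They are the rows of the count table named for glutathione S-transferases (Gsta, Gstk, Gstm, Gsto, Gstp, Gstt and Gstz), glutathione peroxidases (Gpx), peroxiredoxins (Prdx), superoxide dismutases (Sod) and thioredoxins with their reductases (Txn, Txnrd), plus Cat, Nqo1, Hmox1, Gclc, Gclm, Gsr and Nfe2l2. The whole table holds 24552 genes. Female C57BL/6J mice were either fed ad libitum (AL, 4 libraries) or placed on 40% calorie restriction (CR, 4 libraries) for 4 months from 6 to 7 months of age, and their LGs were taken at 10 to 11 months. The mice were inbred and shared cages. For restricted mice the study gives a fixed feeding hour late in the day, so calories and meal time cannot be told apart. RNA came from the whole gland, and libraries are named by diet and replicate number. The study used 2 cohorts with different chow, and the feeding hour is stated in its account of the second. In that cohort the chow of the restricted group was enriched by 40% in micronutrients, vitamins included. The labels do not give the cohort of these libraries, so the diet and its micronutrients cannot be told apart. Levels are CPM, read counts brought to a common library total of 1e+06 with relative log expression (RLE) factors, from sequencing of transcript 3' ends. As fewer cells of a type and less RNA per cell give the same bulk level, the values below do not separate them.

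Cells remove superoxide with superoxide dismutases, which make hydrogen peroxide, and remove the peroxide with catalase, glutathione peroxidases and peroxiredoxins. Glutathione peroxidases draw electrons from glutathione, which is made by glutamate-cysteine ligase and recycled by glutathione reductase, whereas most peroxiredoxins are recycled by thioredoxin and thioredoxin reductase. Many of these genes are targets of NRF2, the transcription factor encoded by Nfe2l2, which binds the antioxidant response element. Exocrine acinar cells fold large amounts of disulfide-bonded secreted protein, a process that itself yields peroxide.

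Of the 53 genes, 39 were counted often enough to be tested, 8 had fewer counts and 6 had 0 counts in all libraries. Between CR and AL, 2 genes were higher and 1 lower past both thresholds, which were 0.05 for the adjusted p-value and 1.5 for the fold change, in the reference fit (edgeR on all 8 libraries with its standard count filter and no block or covariate). Over all 11211 genes tested, 1.2% were called higher and 0.785% lower, 1.98% in all. The peroxiredoxin gene Prdx6 and the omega-class transferase gene Gsto1 rose, and the peroxiredoxin gene Prdx1 fell. Without regard to the adjustment, 5 of the 39 genes had a positive and 3 a negative difference at p-values under 0.05, where 8.62% and 8.1% of all genes did. These wider counts, 12.8% and 7.69% of the 39, were near the shares in the table as a whole. The diets did not overlap for 5 of the 39, with CR above AL in 3 and below in 2, as for 9.79% of all genes (4.63% above and 5.16% below). The median log2 fold change of the 39 genes was 0.18, beside 0.01 for all genes tested, with 22 of them above 0 and 17 below, and 51.1% of all genes were above 0. This median was 0.01 when only the 33 genes with at least 10 counts in each library were kept and 0.35 with the parotid covariate described below.

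**Figure D1:**
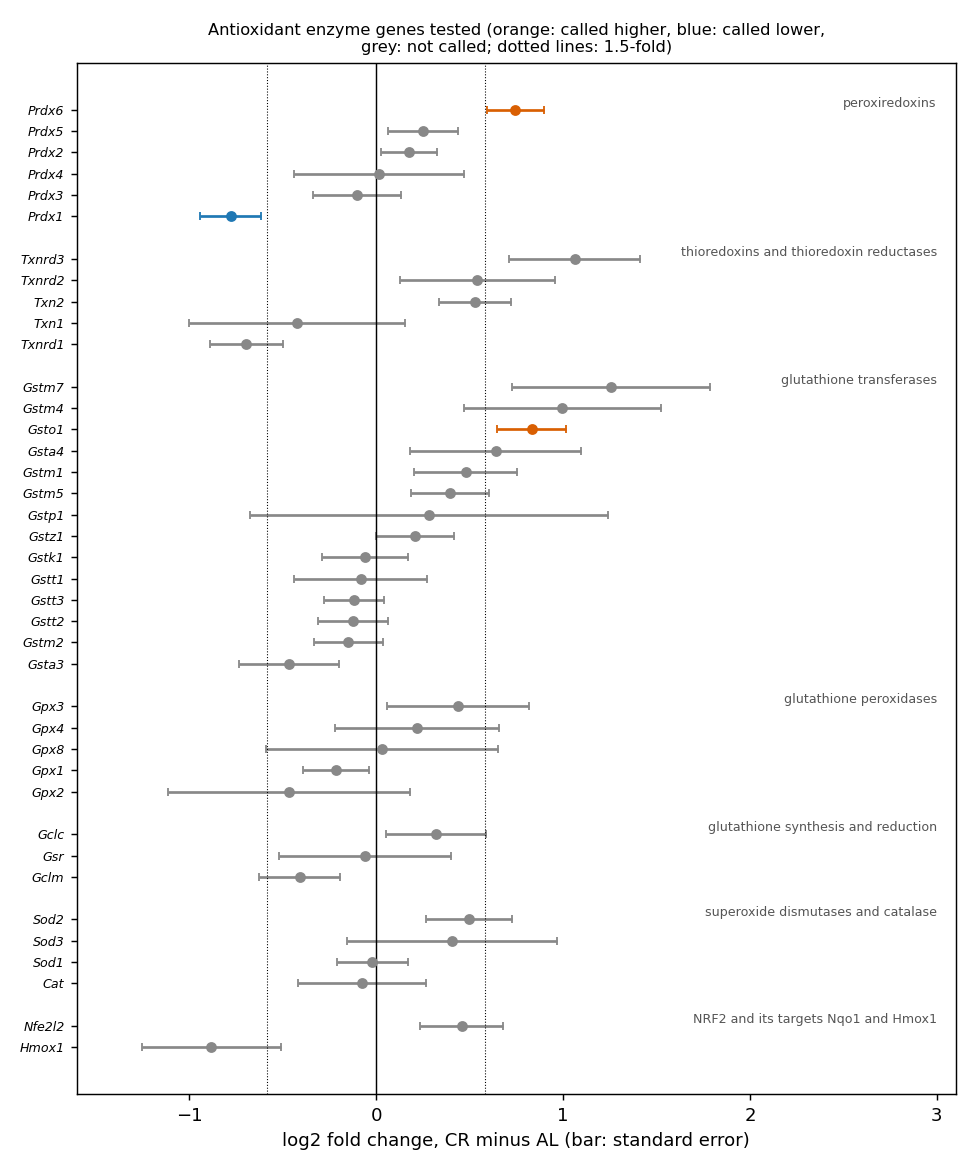
Log2 fold changes of the 39 tested genes between CR and AL on the x axis, with standard errors, one gene per line and grouped by enzyme class; orange and blue points passed both thresholds and the dotted lines mark 1.5-fold. Prdx6 and Prdx1 sit at opposite ends of the peroxiredoxins, at 0.74 and -0.78, while the superoxide dismutases and catalase lie between -0.08 and 0.50.

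The markers of the labelled tissue were present, and transcripts of other tissues moved with the diet. All 10 genes of a list of LG acinar markers had counts, with a summed level of 177255 to 180601 CPM in AL and 118648 to 190423 CPM in CR. Of the acinar genes 3 were called lower. The parotid is a salivary gland that lies close to the exorbital LG, and the 6 genes of a parotid list all had counts and 3 were called higher. They summed to 23481, 12694, 9812 and 236.4 CPM in AL replicates 1 to 4 and to 211385, 230424, 183402 and 17902 CPM in CR replicates 1 to 4. A list of 16 leukocyte genes, all with counts, summed to between 173.7 and 563.3 CPM in AL and between 93.4 and 149.9 CPM in CR, with 9 of 9 tested genes below 0 on the log2 scale and 2 called lower. Among 8 white adipose genes, which summed to 8.06 to 18.6 CPM in AL and 25.9 to 96.8 CPM in CR, 5 of 5 tested lay above 0 and 1 was called. The 6 fibroblast genes, 2 of them called lower, summed to 158.2 to 284.4 CPM in AL and 134.4 to 201.9 CPM in CR, the 6 epithelial genes to 225.1 to 267.0 and 260.7 to 355.2 CPM, the 6 skeletal muscle genes to 1.29 to 12.7 and 1.84 to 55.7 CPM and the 5 liver genes, of which Serpina1a was at 0 and the 1 tested was called higher, to 0.304 to 8.78 and 6.22 to 163.6 CPM. Of 7 erythrocyte genes, 5 were listed at 0, among them the globin genes Hba-a1, Hba-a2, Hbb-bs and Hbb-bt. Reads shared between similar genes were not examined for this list, so a 0 here does not show absence. The part of these transcripts in the results below was not tested.

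Prdx1 (Gene ID 18477, chromosome 4 from 116685544 to 116700822 of GRCm38, the build named mm10) encodes a cytosolic peroxiredoxin that reduces hydrogen peroxide with electrons from thioredoxin. Its level was 175.5, 158.2, 153.1 and 136.0 CPM in AL replicates 1 to 4 and 98.9, 80.4, 89.0 and 95.9 CPM in CR replicates 1 to 4. Every CR library thus lay below every AL library, and the nearest were AL replicate 4 and CR replicate 1. The mean fell from 156 ± 16.3 to 91.0 ± 8.25 CPM (SD, n = 4 each), which was 1.71-fold lower (log2 fold change -0.78, standard error 0.16, edgeR adjusted p = 0.0337). Prdx1 stayed called without AL replicate 4 or CR replicate 4 and was not called when any of the other libraries was left out, with a log2 fold change between -0.84 and -0.71 and an edgeR adjusted p between 0.0186 and 0.117.

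Prdx6 (Gene ID 11758, chromosome 1 from 161240112 to 161251219) encodes the single-cysteine peroxiredoxin, which draws on glutathione in place of thioredoxin and also has phospholipase activity. AL replicates 1 to 4 had 26.2, 29.5, 31.0 and 28.3 CPM of it, and CR replicates 1 to 4 had 49.4, 41.7, 51.3 and 50.5 CPM. All CR libraries exceeded all AL libraries. The mean rose from 28.7 ± 2.03 to 48.2 ± 4.41 CPM (SD, n = 4 each), or 1.68-fold (log2 fold change 0.74, standard error 0.15, edgeR adjusted p = 0.0328). Only the fit without CR replicate 4 kept the call among the 8 that each left out 1 library, and the log2 fold change ranged from 0.71 to 0.82 and the edgeR adjusted p from 0.0204 to 0.0987.

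Gsto1 (Gene ID 14873, chromosome 19 from 47854970 to 47864790) encodes an omega-class transferase, which reduces dehydroascorbate and mixed disulfides rather than conjugating foreign compounds as its main activity. AL replicates 1 to 4 had 11.1, 11.8, 12.4 and 15.4 CPM and CR replicates 1 to 4 had 22.4, 25.0, 25.1 and 18.2 CPM. The groups were separate, and the libraries nearest to each other were both numbered 4. From 12.7 ± 1.90 to 22.6 ± 3.24 CPM (SD, n = 4 each), the gene rose 1.78-fold (log2 fold change 0.83, standard error 0.18, edgeR adjusted p = 0.0423). Its call held without AL replicate 4 or CR replicate 4 and was lost without any of the others, at log2 fold changes of 0.78 to 0.94 and edgeR adjusted p-values of 0.0121 to 0.133.

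Txnrd1 (Gene ID 50493, chromosome 10 from 82833951 to 82897712) encodes the cytosolic selenoprotein that recycles thioredoxin. It had 29.3, 26.1, 24.7 and 17.7 CPM in AL replicates 1 to 4 and 15.7, 12.4, 17.4 and 15.0 CPM in CR replicates 1 to 4. The diets did not overlap, though AL replicate 4 and CR replicate 3 nearly met. Its means of 24.4 ± 4.92 CPM in AL and 15.1 ± 2.08 CPM in CR (SD, n = 4 each) gave a log2 fold change of -0.69 (standard error 0.20) that did not pass, with an edgeR adjusted p of 0.0927. Leaving out AL replicate 4 and CR replicate 4 together, an alternative chosen after the values were seen, gave -0.82 and an edgeR adjusted p of 0.0326, and DESeq2 gave -0.69 and an adjusted p of 0.0397. The former called 3.68% of all genes higher and 2.16% lower and the latter 3.41% and 2.83%, against 1.2% and 0.785% above. An edgeR fit with the replicate number as a block also called Txnrd1, beside 388 of 11211 genes higher and 312 lower. The replicate numbers were not taken as pairs. Over all alternatives the adjusted p of Txnrd1 from edgeR or DESeq2 ran from 0.0326 to 0.415.

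**Figure D2:**
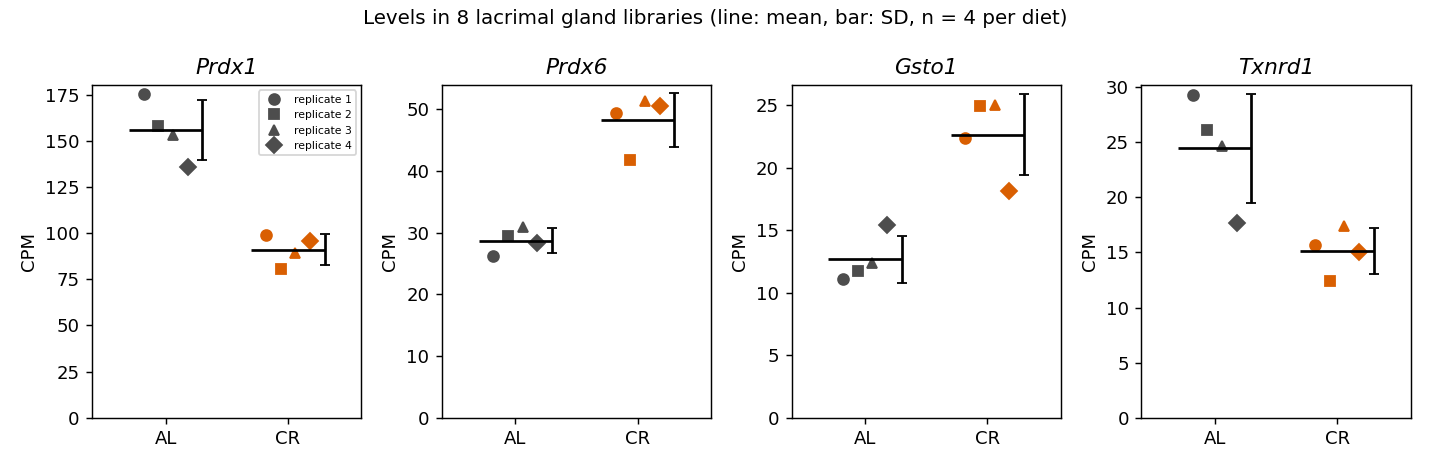
Levels in CPM (y axis, from 0) of Prdx1, Prdx6, Gsto1 and Txnrd1 in the 4 AL and 4 CR libraries, one symbol per replicate number, with the mean as a line and the SD as a bar. No AL and CR values overlap in any panel, and the closest pair is that of Txnrd1 at 17.7 and 17.4 CPM.

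The level of other tissues' transcripts was set beside these 4 genes. AL replicate 1 and CR replicate 4 had parotid sums of 23481 and 17902 CPM, whereas the mean log2 CPM over the same list was 6.92 and 9.14, so the order of this pair depended on the measure. In the same pair Prdx1 was at 175.5 and 95.9 CPM, Prdx6 at 26.2 and 50.5 CPM, Gsto1 at 11.1 and 18.2 CPM and Txnrd1 at 29.3 and 15.0 CPM. Once the mean log2 CPM of the parotid list entered the fit as a covariate, log2 fold changes were -0.94 for Prdx1, 0.92 for Prdx6, 1.04 for Gsto1 and -1.03 for Txnrd1, and none of them was called (edgeR adjusted p between 0.381 and 0.415). That fit called 0.0357% of all genes higher and 0% lower, and the list's mean ranged from 0.98 to 6.92 in AL and from 9.14 to 12.9 in CR without overlap. The same covariate moved the fold change of 15 of the 39 genes by more than 1.5 times, none of them called in that fit (edgeR adjusted p between 0.415 and 0.927). Toward CR moved Gstp1 (from 0.28 to 2.87 on the log2 scale), Txn1 (from -0.42 to 1.83), Gsr (from -0.06 to 1.46), Gpx4 (from 0.22 to 1.72), Gstm7 (from 1.25 to 2.69), Gsta4 (from 0.64 to 1.93), Gstm1 (from 0.48 to 1.33), Gsta3 (from -0.46 to 0.35), Gstt1 (from -0.08 to 0.69), Gpx3 (from 0.44 to 1.12) and Hmox1 (from -0.88 to -0.29). Toward AL moved Prdx4 (from 0.02 to -1.79), Gpx8 (from 0.03 to -0.95), Sod3 (from 0.41 to -0.45) and Gstz1 (from 0.21 to -0.38). The library numbered 4 had the lowest mean of the parotid list in each diet, 0.98 in AL and 9.14 in CR. Txn1, Gpx4, Gsr and Gstp1 were highest, and Sod3 lowest, in these same libraries. The part of these libraries in the shifts was not tested, so the shifts are not diet effects freed of parotid transcripts. Among the AL libraries the leukocyte sum was lowest in replicate 1 and highest in replicate 3, where Prdx1 was at 175.5 and 153.1 CPM and Txnrd1 at 29.3 and 24.7 CPM. Among the CR libraries it was lowest in replicate 2 and highest in replicate 3, where Prdx1 was at 80.4 and 89.0 CPM and Txnrd1 at 12.4 and 17.4 CPM. In these pairs the higher leukocyte sum went with lower levels of both genes in AL and with higher levels in CR. Only the extremes of each diet are compared here, and the part of leukocytes was not tested. The adipose sum was higher in every CR than in every AL library, as Prdx6 and Gsto1 were, and its part was not tested.

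**Figure D3:**
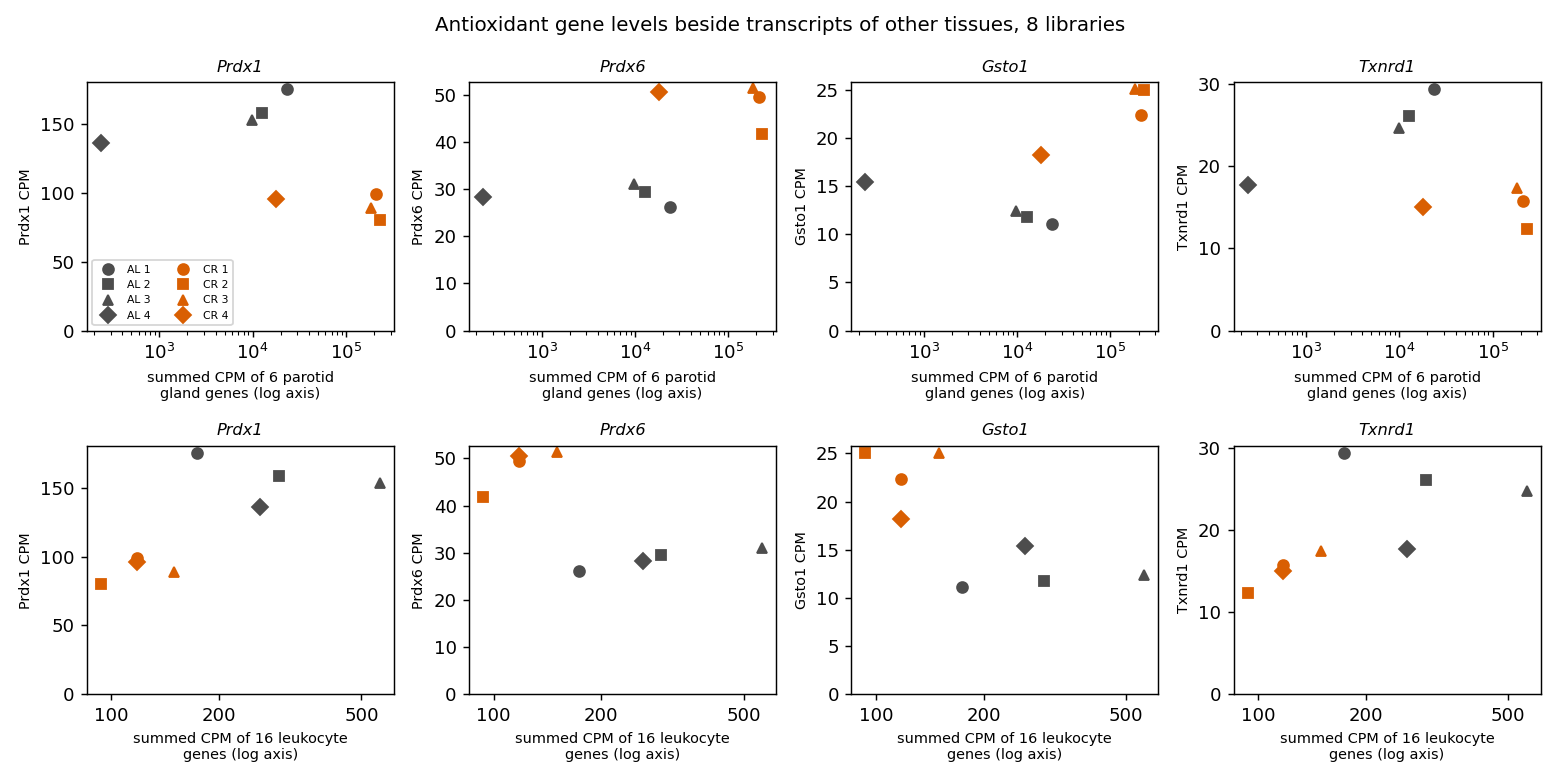
CPM of Prdx1, Prdx6, Gsto1 and Txnrd1 (y axes, from 0) against the summed CPM of the 6 parotid genes (top row) and the 16 leukocyte genes (bottom row), both on log axes, with dark grey symbols for AL and orange for CR libraries. The parotid sums run from 236.4 to 23481 CPM in AL and from 17902 to 230424 CPM in CR, and the leukocyte sums do not overlap between the diets.

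The promoters of Prdx1, Txnrd1, Gsto1 and Gstm5, which are 4 of the 5 genes that did not overlap between the diets, are shown because the antioxidant response element is the site by which NRF2 reaches this family. Each window runs from 250 bases before to 50 after the start site on the gene's strand, taken from RefSeq on GRCm38.p6, and capitals mark the core TGACNNNGC or its reverse complement GCNNNGTCA. The windows are chr4:116685349-116685648 (+) for Prdx1, chr10:82858956-82859255 (+) for the Txnrd1 start that holds the motif among 3 starts, chr19:47854723-47855022 (+) for Gsto1 and chr3:107895604-107895903 (+) for Gstm5. No window was at hand for Prdx6, the fifth.
Prdx1: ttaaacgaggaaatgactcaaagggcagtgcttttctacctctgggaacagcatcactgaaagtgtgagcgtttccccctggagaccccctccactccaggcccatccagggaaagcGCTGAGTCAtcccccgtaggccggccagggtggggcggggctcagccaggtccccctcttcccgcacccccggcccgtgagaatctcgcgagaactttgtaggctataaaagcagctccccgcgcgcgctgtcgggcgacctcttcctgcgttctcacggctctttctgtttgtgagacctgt
Txnrd1: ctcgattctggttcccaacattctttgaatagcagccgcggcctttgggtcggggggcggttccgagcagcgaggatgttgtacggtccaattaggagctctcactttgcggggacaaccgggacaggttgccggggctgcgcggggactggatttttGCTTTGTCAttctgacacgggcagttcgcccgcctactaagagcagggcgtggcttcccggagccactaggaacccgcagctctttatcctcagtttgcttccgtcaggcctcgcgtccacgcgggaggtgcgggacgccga
Gsto1: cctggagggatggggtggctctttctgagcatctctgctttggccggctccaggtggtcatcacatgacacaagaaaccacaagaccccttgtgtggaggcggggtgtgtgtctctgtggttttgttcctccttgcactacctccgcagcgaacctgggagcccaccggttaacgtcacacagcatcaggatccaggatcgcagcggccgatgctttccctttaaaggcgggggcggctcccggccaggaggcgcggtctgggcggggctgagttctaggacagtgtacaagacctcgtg
Gstm5: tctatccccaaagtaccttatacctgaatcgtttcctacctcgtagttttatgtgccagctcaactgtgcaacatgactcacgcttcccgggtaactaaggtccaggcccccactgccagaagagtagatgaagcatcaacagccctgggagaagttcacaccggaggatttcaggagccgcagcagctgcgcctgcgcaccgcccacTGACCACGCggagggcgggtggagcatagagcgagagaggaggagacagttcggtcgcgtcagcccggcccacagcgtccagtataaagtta

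The Prdx1 match began 133 bases before the start site on the other strand, the Txnrd1 match 92 bases before it on the other strand and the Gstm5 match 42 bases before it on the gene's strand. The Gsto1 window held no match. Windows were at hand for 44 of the 53 genes, and 8 of these 44, or 18.2%, held the motif in at least 1 window, beside 14% of 27025 genes with windows. The other genes with a match were Gclm, Gsta3, Gstm7, Nfe2l2 and Sod1. Their log2 fold changes were -0.41, -0.46, 1.25, 0.46 and -0.02, so genes with the motif lay on both sides of 0. A match describes these letters and not a site in use.

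The other peroxiredoxins differed less. Prdx2, the peroxiredoxin abundant in red cells, had 26.7 to 30.9 CPM in AL and 29.8 to 35.5 CPM in CR, a log2 fold change of 0.18 with a 95% interval from -0.15 to 0.50. Prdx3, of the mitochondrial matrix, had a log2 fold change of -0.10 (interval -0.61 to 0.41) and Prdx5, found in mitochondria and peroxisomes, one of 0.25 (-0.16 to 0.66). For the endoplasmic reticulum enzyme Prdx4, which couples peroxide to disulfide formation in secreted proteins, levels ran from 1.32 to 7.40 CPM in AL and from 2.60 to 6.72 CPM in CR, and its log2 fold change of 0.02 had an interval from -0.97 to 1.002, while under the parotid covariate it was -1.79. The interval of Prdx4 thus reached past a 1.5-fold difference in either direction. Prdx6b had 0 counts.

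None of the 5 genes of the thioredoxin system was called in the reference fit, whereas Txnrd1 was called by DESeq2 and by edgeR without both libraries numbered 4. With the replicate number as a block edgeR called Txnrd1 and Txnrd3, though the numbers were not taken as pairs. Txn2, the mitochondrial thioredoxin, had 23.9, 16.9, 17.9 and 16.2 CPM in AL replicates 1 to 4 and 32.8, 28.7, 22.1 and 24.8 CPM in CR replicates 1 to 4. Only AL replicate 1 reached into the CR range. The edgeR adjusted p was 0.180 at a log2 fold change of 0.53 (standard error 0.19), which was -0.03 under the parotid covariate. Txnrd2, the mitochondrial reductase, ranged from 0.810 to 1.45 CPM in AL and 1.24 to 2.12 CPM in CR (log2 fold change 0.54, standard error 0.42). Txnrd3, a reductase with a glutaredoxin domain known from testis, had 1.69, 3.49, 3.05 and 2.03 CPM in AL replicates 1 to 4 and 3.47, 7.16, 6.74 and 4.11 CPM in CR replicates 1 to 4. Its CR values were higher except for replicate 1, which fell just under the highest AL value, and the log2 fold change was 1.06 (standard error 0.35, edgeR adjusted p = 0.140). The cytosolic thioredoxin gene Txn1 had 41.3, 49.8, 21.5 and 127 CPM in AL replicates 1 to 4 and 19.3, 34.2, 21.5 and 104 CPM in CR replicates 1 to 4. In both diets replicate 4 was far above the rest, the log2 fold change was -0.42 (standard error 0.58), and it was -1.27 without CR replicate 4 and 0.26 without AL replicate 4.

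Txn1 was not alone in this. Gpx4, Gsr and Gstp1 were also higher in both libraries numbered 4 than in each of the other 6 libraries, and Sod3 was lower, a pattern chosen after the values were seen. Across all genes tested, 9.62% were higher and 6.86% lower in this way, beside 4 and 1 of the 39 antioxidant genes. The pattern was thus not particular to the antioxidant genes. Gpx4, which reduces lipid peroxides in membranes, had 10.5 and 11.2 CPM in the AL and CR libraries numbered 4 and 2.83 to 8.53 CPM in the others. Gsr, the reductase that returns oxidized glutathione to its reduced form, had 5.77 and 5.06 CPM there against 1.55 to 3.49 CPM. These 2 libraries also had the largest totals, 22156511 and 19310319 counts. Their parotid sums, 236.4 CPM in AL and 17902 CPM in CR, were the lowest of each diet. Whether depth, parotid transcripts or another property of them plays a part was not tested.

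**Figure D4:**
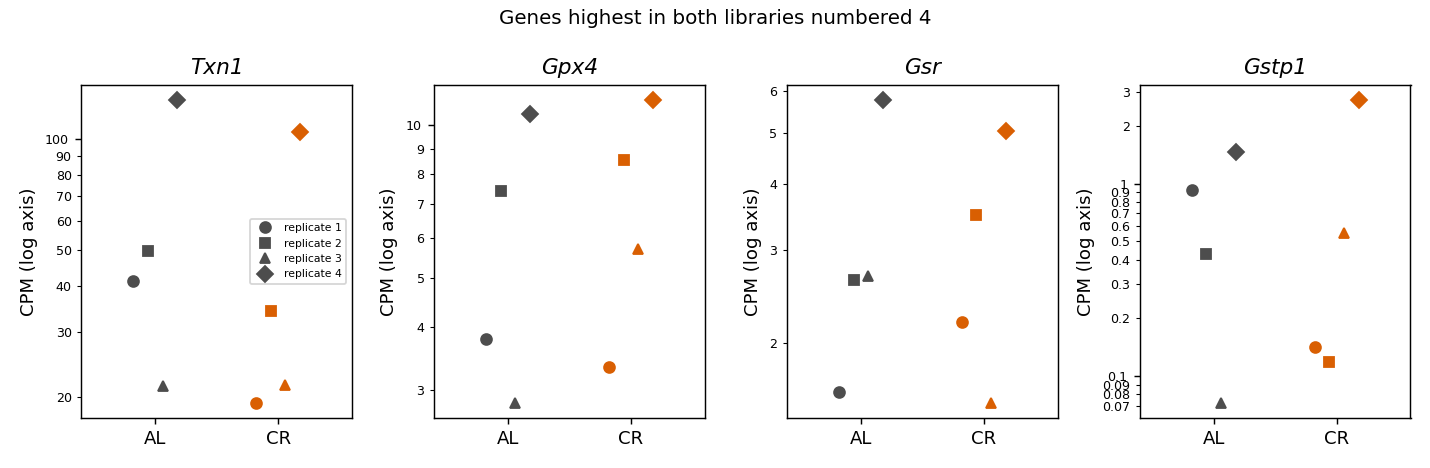
Levels in CPM on log axes of Txn1, Gpx4, Gsr and Gstp1 in the 4 AL and 4 CR libraries, one symbol per replicate number. The diamond, replicate 4, is the highest point of each diet in every panel, for Txn1 at 127 and 104 CPM against 19.3 to 49.8 CPM in the other 6 libraries.

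Of the 22 glutathione S-transferase genes 14 were tested, and besides Gsto1 none was called in the reference fit. These enzymes attach glutathione to reactive compounds, and the mu-class genes lie in a cluster on chromosome 3. Gstm7 had 0.462, 1.35, 2.76 and 3.14 CPM in AL replicates 1 to 4 and 1.77, 5.51, 6.06 and 5.28 CPM in CR replicates 1 to 4, so that CR replicate 1 alone lay within the AL range. Its log2 fold change was 1.25 (standard error 0.53, unadjusted p = 0.0350, edgeR adjusted p = 0.251), or 2.69 under the parotid covariate. With the replicate number as a block Gstm7 was called, though the numbers were not taken as pairs. Gstm5 had 7.16, 8.14, 9.22 and 8.76 CPM in AL and 9.84, 14.1, 9.34 and 10.6 CPM in CR replicates 1 to 4, without overlap (log2 fold change 0.40, standard error 0.21, edgeR adjusted p = 0.372). Its exons overlap a gene on the other strand, 4933431E20Rik. Gstm4 gave 0.997 (standard error 0.52) and Gstm1 0.48 (standard error 0.27), the latter with 179 CPM in CR replicate 3 against 58.4 to 98.3 CPM elsewhere and 0.12 without that library. Gstm2 lay at -0.15 with an interval from -0.55 to 0.25. Among the mu-class genes, then, 4 of 5 tested were above 0 and none passed in the reference fit.

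Gsta3, an alpha-class gene, had 111, 184, 118 and 149 CPM in AL replicates 1 to 4 and 79.3, 77.2, 87.0 and 165 CPM in CR replicates 1 to 4. Without CR replicate 4 every CR library lay below every AL library, and the log2 fold change moved from -0.46 (edgeR adjusted p = 0.429) to -0.80 (edgeR adjusted p = 0.0400), which passed both thresholds, in a fit that called 3.97% of all genes higher and 2.17% lower. With the other libraries left out in turn it was not called, the edgeR adjusted p reaching 0.713, and with the parotid covariate the log2 fold change was 0.35. Gsta4, which acts on the lipid aldehyde hydroxynonenal, gave 0.64 (standard error 0.46). The theta-class genes Gstt1, Gstt2 and Gstt3 lay between -0.12 and -0.08, the maleylacetoacetate isomerase Gstz1 at 0.21 and the kappa-class gene Gstk1 at -0.06. For Gstt3 the 95% interval, from -0.47 to 0.23, did not reach 1.5-fold. Gstp1 is uncertain, since 74% of the windows of 75 bases near its 3' end also occur in Gstp2 or the pseudogene Gstp-ps, and it had 1 to 49 counts in a library.

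Glutathione peroxidases showed no call among the 5 tested. Gpx1, the cytosolic selenoprotein, had 199.7, 209.9, 170.1 and 196.1 CPM in AL replicates 1 to 4 and 155.3, 154.5, 154.2 and 206.6 CPM in CR replicates 1 to 4. Here 3 CR libraries were below every AL library and CR replicate 4 was within their range, for a log2 fold change of -0.21 (interval -0.60 to 0.17). Gpx3, the secreted plasma form, ranged from 3.46 to 8.35 CPM in AL and from 4.94 to 13.4 CPM in CR (0.44, interval -0.39 to 1.26), and the epithelial form Gpx2 from 0.760 to 2.94 and from 0.178 to 2.35 CPM (-0.47, interval -1.88 to 0.94). Gpx4 gave 0.22 and the endoplasmic reticulum form Gpx8 0.03, with standard errors of 0.44 and 0.62, and the parotid covariate put them at 1.72 and -0.95. Of the windows at the 3' end of Gpx4, 85.7% are shared with other genes, among them Gpx4-ps2, and of those of Gpx2, 16.5% are shared with Gpx2-ps1.

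In glutathione synthesis, the catalytic subunit of glutamate-cysteine ligase, Gclc, and its modifier subunit, Gclm, had log2 fold changes of opposite sign, neither of which passed. Gclc was at 3.77 to 6.33 CPM in AL and 4.46 to 7.11 CPM in CR (0.32, standard error 0.27). Gclm had 19.4, 19.4, 29.5 and 18.1 CPM in AL replicates 1 to 4 and 15.1, 13.0, 21.5 and 15.5 CPM in CR replicates 1 to 4 (-0.41, standard error 0.22, edgeR adjusted p = 0.384). In each diet replicate 3 was the highest for Gclm, and only CR replicate 3 lay inside the AL range. Gsr gave -0.06 with an interval from -1.06 to 0.94.

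The superoxide dismutases and catalase were all tested and not called. Sod1, the cytosolic copper and zinc enzyme, was at 140.6 to 187.6 CPM in AL and 144.2 to 203.7 CPM in CR, a log2 fold change of -0.02 whose 95% interval, -0.44 to 0.39, did not reach 1.5-fold. Sod2, the mitochondrial manganese enzyme, had 29.1, 26.3, 17.7 and 35.7 CPM in AL replicates 1 to 4 and 28.5, 48.4, 35.2 and 41.9 CPM in CR replicates 1 to 4. CR replicates 2 and 4 were above every AL library, and the log2 fold change was 0.50 (standard error 0.23, edgeR adjusted p = 0.306). Catalase, Cat, ranged from 7.31 to 19.5 CPM in AL and from 6.44 to 17.6 CPM in CR (-0.08, interval -0.83 to 0.67). The extracellular enzyme Sod3 gave 0.41 (standard error 0.56).

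Nfe2l2 itself had 36.0, 52.2, 74.3 and 50.9 CPM in AL replicates 1 to 4 and 92.0, 63.2, 69.9 and 68.6 CPM in CR replicates 1 to 4. AL replicate 3 alone overlapped with CR, and at a log2 fold change of 0.46 (standard error 0.22) the edgeR adjusted p was 0.328. Hmox1, the heme oxygenase gene, had 3.93, 2.57, 5.81 and 4.51 CPM in AL replicates 1 to 4 and 1.77, 1.36, 2.97 and 3.00 CPM in CR replicates 1 to 4. AL replicate 2 was the library inside the CR range, and the log2 fold change was -0.88 (standard error 0.37, unadjusted p = 0.0346, edgeR adjusted p = 0.249), or -0.29 under the parotid covariate. Hmox1 is also expressed by macrophages. The leukocyte sums above were lower in CR too, and their part in the Hmox1 difference was not tested. Nqo1, the quinone reductase, was under the filter with 0 to 11 counts in a library.

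**Figure D5:**
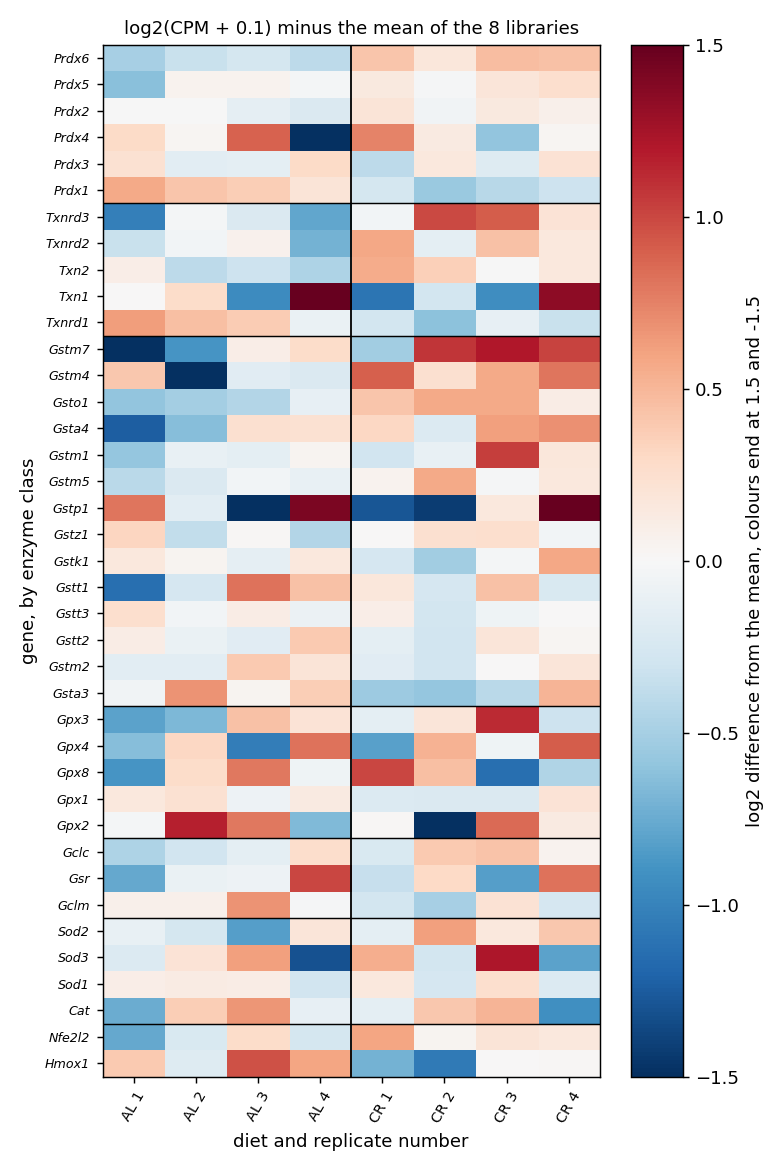
Colour map of the 39 tested genes (lines, by enzyme class) in the 8 libraries (columns), where colour is log2(CPM + 0.1) minus the gene's mean over the 8 libraries and ends at 1.5 and -1.5. Prdx1 and Prdx6 change colour between the diets, while Txn1, Gpx4, Gsr and Gstp1 are red in both columns numbered 4.

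The 14 genes that were not tested are accounted for by their counts. Gpx6, Gsta1, Gstm3, Gstp2, Gstp3 and Prdx6b had 0 counts. Gsta1 and Gstp2 share 86.7% and 85.7% of the windows at their 3' ends with other genes, so a count of 0 there does not show that they were absent. Gpx2-ps1 had 67 counts in all libraries together, Nqo1 45, Gpx7 31, Gsta2 28, Gsto2 24, Gpx5 20, Gstm6 9 and Gstt4 1. All 20 counts of Gpx5, a gene known from the epididymis, came from CR replicates 2 and 3. Without a filter on low counts the same 3 genes, Prdx1, Prdx6 and Gsto1, were called, beside 1.62% of all genes higher and 0.986% lower.

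Other genes of these pathways were read from 9 lists with 138 genes, of which 116 were tested. Of the 116, 2 were called lower and 0 higher, where 0.785% and 1.2% of all genes tested were. Differences at p-values under 0.05 before adjustment were positive in 13 and negative in 14 of 116, where the table as a whole gave 8.62% and 8.1%. Abcc4, which exports glutathione and other organic anions, had 24.2, 29.2, 38.1 and 24.8 CPM in AL replicates 1 to 4 and 9.84, 10.9, 12.2 and 16.2 CPM in CR replicates 1 to 4. All CR libraries were below all AL libraries (log2 fold change -1.24, standard error 0.22, edgeR adjusted p = 0.0161). Me1, the malic enzyme that supplies NADPH in the cytosol, had 54.1, 61.8, 36.7 and 57.0 CPM in AL replicates 1 to 4 and 22.2, 21.3, 25.7 and 34.3 CPM in CR replicates 1 to 4, again without overlap (-1.02, standard error 0.21, edgeR adjusted p = 0.0335). When AL replicate 2, CR replicate 2 or CR replicate 3 was left out Abcc4 was not called, with log2 fold changes from -1.41 to -1.09 and edgeR adjusted p-values from 0.00246 to 0.0728 over all 8 omissions. Me1 was called only without AL replicate 3 or CR replicate 4, at -1.19 to -0.93 and edgeR adjusted p-values from 0.00519 to 0.125. Under the parotid covariate neither was called, and Abcc4 lay at -1.07 and Me1 at -0.54. Of the other Abcc genes tested in these lists, Abcc1 lay at 1.28 and Abcc2 at 1.68, neither of them called in the reference fit.

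The remaining genes of the 9 lists were not called in the reference fit, and their counts differed by list. DESeq2 called 10 of them, beside 3.41% of all genes higher and 2.83% lower. Higher in CR were Abcc2, Ephx1, Glrx5, Mt1, Pgls and Sesn1, and lower were Aox3, Eefsec, Hpgds and Ncf4. Without CR replicate 4, where 3.97% and 2.17% of all genes were called, edgeR called Aox3, Ephx1, Ero1lb, Glrx5, Mt1, Pgls and Sesn1. In the thioredoxin partner list 4 of 15 genes had positive and 3 negative differences at that level. Among them were Srxn1, the sulfiredoxin that repairs overoxidized peroxiredoxins, at -0.63 and the sestrin gene Sesn1 at 1.37. Another sestrin gene, Sesn3, named after its value was seen, lay at -0.66. In the NADPH list G6pdx, which opens the pentose phosphate pathway, lay at -0.51 and Pgls, its second enzyme, at 0.59, with 2 of 14 genes positive and 2 negative at that level. The oxidases that make superoxide or peroxide had 5 of 11 genes negative and 0 positive at that level, with a median log2 fold change of -0.82. They were the NADPH oxidase genes Cybb (-0.81), Ncf1 (-1.10), Ncf4 (-2.42) and Rac2 (-1.57), which phagocytes and other leukocytes express, and the aldehyde oxidase gene Aox3 (-1.10). In the reference fit no gene of this list was called, with edgeR adjusted p-values of 0.108 or more, whereas DESeq2 called Aox3 and Ncf4. Aox3 was also called by edgeR without CR replicate 4, without both libraries numbered 4 and with the replicate number as a block. The leukocyte sums moved in the same direction, and their part was not tested. For glutathione synthesis, breakdown and transport 2 of 15 genes were positive and 1 negative at that level, for microsomal transferases, glutaredoxins and glyoxalases 1 of 12 and 1, for selenoprotein synthesis 0 of 16 and 1, for NRF2 regulators 1 of 13 and 0, for other NRF2 targets 2 of 13 and 1, and for metallothioneins, paraoxonases and copper delivery 1 of 7 and 0.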

How the data were processed

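RNA from LGs of AL (4 libraries) and CR (4 libraries) mice was sequenced from transcript 3' ends with a Lexogen QuantSeq kit. The counts deposited by the authors were made by trimming with cutadapt, aligning to mm10 with STAR and counting per gene with HTSeq. The authors also deposited log2 values, made from the counts with DESeq2 RLE size factors, and recomputing these gave a largest difference of 0. Versions, annotation and strand setting are not given in the sources used here. After 5 repeated symbols were dropped, 24552 genes remained, and 11211 passed edgeR's filterByExpr. Totals were 12051881 to 22156511 counts per library. A floor of 3 counts corresponds to 0.152 to 0.231 CPM and covers counting error only.

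CR was compared with AL over all genes by edgeR 4.0.16 in R 4.3.3 (RLE factors, quasi-likelihood F test, Benjamini-Hochberg adjustment), with thresholds of 0.05 (adjusted p) and 1.5 (fold change). Standard errors were taken as the log2 fold change over the root of the F statistic, and 95% intervals from the t distribution. The study's text gives 4 mice per diet, while the labels do not name the mouse behind each library. Members and lists were chosen with earlier results of these data known. Members are named by class, with values in every library for those called, not overlapping or changed in call by a left-out library, for those at an unadjusted p under 0.05 and for a few more described after their values were seen, and pathway genes if called or among the smallest p-values of a list. Positions come from GENCODE vM21. Windows of 75 bases in the last 600 bases of the longest transcript were searched in all transcripts. The script was tested on simulated data. The alternatives were TMM factors, DESeq2 1.42.0, robust dispersion, other count filters (none, or a minimum of 10 per library), dropping the fold-change threshold, a replicate block, a parotid covariate, leaving out the 50 most counted genes, each library, and (added later) both libraries numbered 4.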

Additional observations from a re-analysis of the deposited data

Results flagged for a closer look

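Among 78 groups of 4 libraries (39 genes in each diet), 6 had a library whose gap to the nearest other, divided by the group's range, was above Dixon's 95% critical value for 4 samples. Chance gives about 1 in 20 groups. Of these 6 values, 3 were in CR replicate 4 and 1 in AL replicate 4. For Gpx1, CR replicate 4 was at 206.6 CPM and the other CR libraries at 154.2 to 155.3 CPM (ratio 0.98). For Gsta3 it was at 164.7 CPM against 77.2 to 87.0 CPM (0.888), and for Gstp1 at 2.72 CPM against 0.118 to 0.557 CPM (0.832). For Sod1, AL replicate 4 was at 140.6 CPM against 183.9 to 187.6 CPM (0.921). Gclm in AL replicate 3 was at 29.5 CPM against 18.1 to 19.4 CPM (0.887), and Prdx5 in AL replicate 1 at 13.8 CPM against 20.9 to 22.2 CPM (0.846).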

How the results depend on the processing

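The log2 fold changes of Prdx1, Prdx6 and Gsto1 kept their direction under every alternative listed in the methods. With 2 genes called higher and 1 lower as tested above, the counts were the same with TMM factors, robust dispersion, other count filters, no fold-change threshold and without the 50 most counted genes. DESeq2 called 2 lower, as did the fit without both libraries numbered 4, the added gene being Txnrd1. With the parotid score as a covariate 0 were called higher and 0 lower. Leaving out 1 library gave 0 to 2 genes higher and 0 to 2 lower, with neither direction called without AL replicate 1, 2 or 3 or CR replicate 1, 2 or 3. The cause was not tested. Over all genes 134 were called higher and 88 lower as tested above, 382 and 317 by DESeq2, 388 and 312 with the replicate block, 271 and 165 without a count filter, 4 and 0 with the parotid covariate, 413 and 243 without both libraries numbered 4, and 35 to 453 and 25 to 247 with 1 library left out. Of the pathway genes, 0 were called higher and 2 lower as tested above, 6 and 6 by DESeq2, 3 and 5 with the replicate block, 4 and 5 without both libraries numbered 4, 1 higher without a count filter (Ephx1), 3 lower with at least 10 counts in each library (Eefsec added), 0 lower with the parotid covariate, and 0 to 5 higher and 0 to 4 lower when 1 library was left out. Libraries that share a replicate number deviated from their group means with a correlation of 0.149, 0.0795, 0.245 and 0.462 for numbers 1 to 4, so the numbers were not taken as pairs, and not every library correlated best with its own number. The replicate block gave 4 members called higher (Gstm7, Gsto1, Prdx6 and Txnrd3) and 2 lower (Prdx1 and Txnrd1), and of the pathway genes it called Abcc2, Abcc4, Aox3, Chac1, Eefsec, Ephx1, Glrx5 and Me1. Of 653 values of single genes under an alternative, 574 kept direction and call, and 51 in 18 genes changed sign, none of them for a gene called in the reference fit. The log2 fold changes that changed sign were Gpx2 0.064, Gpx8 -0.95, Gsr 1.46, Gsta3 0.35, Gstk1 0.50, Gstm2 0.24, Gstt1 0.69, Gstt2 0.38, Gstz1 -0.38, Prdx3 0.059, Prdx4 -1.79, Sod3 -0.45, Txn1 1.83, Txn2 -0.032 with the parotid covariate, Gpx8 -0.079, Gstp1 -0.12, Gstt1 0.023 with the replicate block and Cat 0.063, Gsr 0.052, Gstt1 0.12, Prdx4 -0.26 without both libraries numbered 4. With 1 library left out, the values ran across 0 for Cat (-0.28 to 0.15), Gpx4 (-0.081 to 0.62), Gpx8 (-0.42 to 0.35), Gsr (-0.41 to 0.41), Gstk1 (-0.32 to 0.089), Gstp1 (-0.082 to 0.65), Gstt1 (-0.33 to 0.23), Prdx3 (-0.20 to 0.0089), Prdx4 (-0.30 to 0.38), Sod1 (-0.11 to 0.063), Sod3 (-0.058 to 0.71), Txn1 (-1.27 to 0.26). Among the tested antioxidant genes, the least precise values of the reference fit were those of Gstp1, Gpx2 and Gpx8, with standard errors of 0.62 to 0.96.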
